A study of Oryza sativa Japonica Group with 12 samples.

Results

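The genes described here encode the CIPK protein kinases and the CBL calcium sensors of rice, read in the lowest 5 mm of the shoot of plants that lack cytosolic glutamine synthetase 1;2 and of wild-type plants. Members were the genes with a symbol or synonym made of CIPK or CBL and a number. This gave 39 genes, 30 of them CIPK and 9 CBL genes. A probe set of their own, with no other gene listed, was found for 31 of these (24 CIPK and 7 CBL genes) out of 17905 genes with such a probe set. CIPK3, CIPK9, CIPK13, CIPK15, CIPK27, CIPK33, CBL1 and CBL7 had none, so no value can be given for these 8. Where a gene had several probe sets, the one with the highest mean over the 12 arrays was used. The name of the probe set used ends in _x_at for CIPK2, CIPK16 and CBL9, and in _s_at for CIPK11. It ends in _a_at for CIPK14, CIPK31 and CIPK32. Whether these also read other transcripts was not tested. Some loci carry more than 1 family name in the gene table, and they are called CIPK18 (also CIPK22), CIPK31 (also CIPK3) and CBL5 (also CBL2) here.

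CBL proteins bind calcium ions through EF hands and then dock onto CIPK kinases, plant relatives of the yeast kinase SNF1, through a short stretch of the kinase known as the NAF motif. Docking releases the kinase from its own inhibitory region and brings it to the plasma membrane or the vacuole, where it phosphorylates ion transporters. In rice, CIPK24 and CBL4 are the counterparts of the Arabidopsis salt tolerance proteins SOS2 and SOS3, and CIPK23 acts with CBL1 on the potassium channel AKT1. In Arabidopsis, kinases of this family also act on a nitrate transporter and on ammonium transporters, which ties them to nitrogen supply. Apart from such named counterparts, the same number in rice and Arabidopsis does not mark a matching gene.

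There were 4 groups of 3 arrays, which the submitters call biological replicates. They held the mutant at 11 d, the mutant at 7 d, the wild type at 11 d and the wild type at 7 d. The mutant was homozygous for gs1;2, all plants were of the cultivar Nipponbare. Every group grew in nutrient solution that supplied nitrogen as 1 mM ammonium. How many plants or mutant lines an array stands for is not given in the sources used here. Signals are deposited log2 values of the Affymetrix rice array, on which each probe set reads a transcript. They rank the same probe set between arrays and do not rank different genes against each other.

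GS1;2 itself (listed as GLN1-2) read 8.37, 8.65 and 11.44 (log2) in the arrays labelled mutant at 11 d, against 12.44, 12.42 and 12.50 in wild type at 11 d. At 7 d it read 7.76, 7.65 and 7.80 in the mutant and 12.38, 12.31 and 12.46 in wild type. The array labelled mutant 11 d replicate 3 therefore goes against its label in this gene. Without it, 1 of the 31 CIPK and CBL genes passed at 7 d, 18 at 11 d, 13 for the change between the ages, 6 for age in the mutant and 19 for age in wild type, against 2, 20, 16, 7 and 19 with it. Of all genes, 1.45%, 43.2%, 35.7%, 12.2% and 53.5% passed without that array, in the same order. With it the shares of all genes were 1.25%, 46.7%, 38.2%, 15.5% and 53.8%. The calls lost were CIPK18 at 7 d, CIPK11 and CBL6 at 11 d, CIPK1, CIPK7 and CBL2 for the change between the ages, and CIPK7 for age in the mutant. The growth text describes another chamber and 18 days of growth for samples 13 to 36, and the titles of the arrays from wild type at 11 d carry the numbers 13, 14 and 15. A different growth condition of that group cannot be told apart from genotype at 11 d or from age in wild type. The meristem genes OSH1, OSH6, OSH71 and OSH43 had a mean of 8.86 to 8.88 in the arrays labelled mutant at 11 d and 8.81 to 9.01 in wild type at 11 d. The 6 green leaf genes measured had a mean of 10.26 to 10.61 in the arrays labelled mutant at 11 d, against 9.07 to 9.36 in wild type at 11 d. The 5 root genes had means of 6.66 to 6.75 and 6.31 to 6.44 in the same groups, and the 3 seed storage genes 4.59 to 4.75 and 5.60 to 5.86. The largest part of the seed storage difference came from GLUA-2, with group means of 6.86 and 8.98. RP5 had 4.14 and 4.47, and GLUA-1 had 2.97 and 3.71, where signal over background is not known. Of the root genes at 11 d, 3 were higher in the arrays labelled mutant, 1 was lower and 1 did not pass. Of all genes, 23.9% were higher and 22.8% lower at 11 d. The lower root gene was CASP1, with a mean of 4.51 against 5.60 in wild type. Without mutant 11 d replicate 3, 2 root genes were higher and 0 lower. The phloem gene SUT1, a sucrose transporter, read 8.63 to 9.10 in the arrays labelled mutant at 11 d and 9.99 to 10.15 in wild type at 11 d. It differed by -1.13 at 11 d (SE 0.15, adjusted p = 0.000106, and -0.98 with the doubted array omitted) and rose by 2.20 with age in wild type. In the meristem list, OSH71 had a mean of 9.97 in the arrays labelled mutant at 11 d and 10.48 in wild type at 11 d. OSH6 had means of 8.24 and 7.95 in the same groups. Of that list 1 gene was higher at 11 d, 1 was lower and 2 did not pass, and without mutant 11 d replicate 3, 0 were higher and 1 lower. With all arrays, 50% of the meristem list passed, near the 46.7% of all genes. The ranges of the meristem list mean overlap between the genotypes at 11 d, while those of the green leaf, root and seed storage lists and of SUT1 do not. Their part in the differences of CIPK and CBL genes was not tested. In bulk tissue, fewer cells of a type and less RNA per cell cannot be told apart.

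At 7 d the comparison asks which of the genes already differ early in growth without GS1;2. Of the 31 genes, 2 rose in the mutant, 0 fell and 29 did not pass (limma, adjusted p under 0.05 over all 57194 probe sets). Of all 17905 genes, 1.25% passed at this age, 0.787% higher and 0.464% lower. Both genes that passed encode kinases, CIPK1 and CIPK18. The median difference was 0.03 over the 31 genes and 0.01 over all genes (log2).

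CIPK1 read 9.40, 9.82 and 9.79 in the mutant at 7 d, against 8.66, 8.92 and 8.86 in wild type at 7 d. Every mutant array lay above every wild-type array, and the difference of 0.86 (SE 0.12, adjusted p = 0.00679) is a 1.81-fold higher signal. At 11 d the arrays labelled mutant read 9.42, 9.56 and 9.35, against 9.09, 9.15 and 9.30 in wild type. The groups still did not overlap, but the difference was 0.27 (SE 0.12, adjusted p = 0.126) and did not pass, nor did it without the array in doubt (0.32, adjusted p = 0.12). The genotype difference of CIPK1 was smaller at 11 d than at 7 d by a tested change of -0.59 (SE 0.17, adjusted p = 0.0252). When each array was omitted in turn, that change kept its call in 6 of 12 fits, with adjusted p = 0.0583 without the array in doubt, while the call at 7 d was kept in all 12.

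CIPK18 read 9.48, 9.55 and 9.68 in the mutant at 7 d, against 9.30, 9.10 and 9.02 in wild type at 7 d, a difference of 0.43 (SE 0.09, adjusted p = 0.0465). At 11 d it read 9.37, 9.16 and 9.30 in the arrays labelled mutant, against 8.81, 8.82 and 8.74 in wild type, a difference of 0.48 (SE 0.09, adjusted p = 0.00152). The groups did not overlap at either age, and the change of the difference between the ages was 0.05 (SE 0.13, adjusted p = 0.838). With each array omitted in turn, the call at 7 d was kept in 2 of 12 fits, without mutant 7 d replicate 1 and without wild-type 7 d replicate 1, and the adjusted p reached 0.163 in the others. The call at 11 d was kept in all 12, with a difference of 0.47 without the array in doubt.

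The groups also did not overlap at 7 d in CIPK2, CIPK6, CIPK17, CIPK19 and CBL3, 7 genes in all with CIPK1 and CIPK18. Over all genes, 24.9% had groups without overlap at this age. These 5 genes had differences from -0.19 (CIPK19) to 0.49 (CIPK17) and did not pass, and for CIPK17 the lowest mutant and the highest wild-type array both round to 6.19. CIPK17 and CIPK21 passed as well when mutant 7 d replicate 1 was left out. That array read 6.19 for CIPK17 and 7.68 for CIPK21, while the other mutant arrays at 7 d read 6.86 and 6.96 for CIPK17 and 8.47 and 8.35 for CIPK21. Calls rose over the whole array without it, from 556 to 1556 probe sets at 7 d. No CBL gene passed at 7 d, with differences from -0.04 to 0.18, and 1 of the 7 had an unadjusted p under 0.05.

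**Figure D1:**
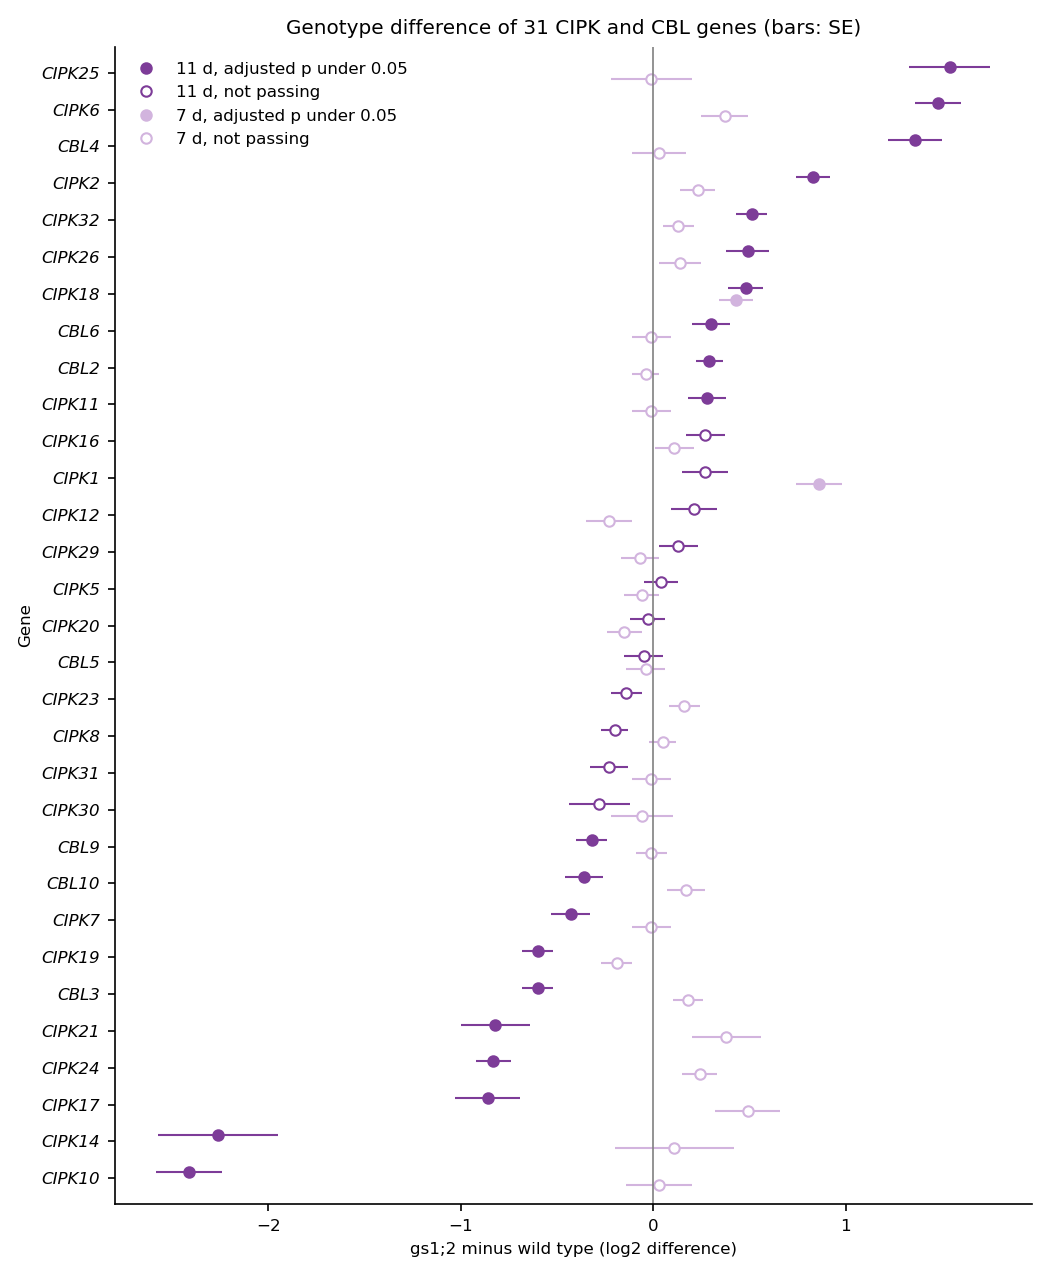
Genotype difference (gs1;2 minus wild type, log2) of 31 CIPK and CBL genes at 11 d (dark) and at 7 d (light), with the standard error of the fit; filled points have an adjusted p under 0.05. At 11 d the differences run from -2.41 (CIPK10) to 1.54 (CIPK25), and at 7 d only CIPK1 and CIPK18 are filled.

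At 11 d the same comparison gave 10 genes higher in the arrays labelled mutant, 10 lower and 11 that did not pass. The 20 that passed are 64.5% of the 31 genes, while 46.7% of all genes passed at this age, 23.9% higher and 22.8% lower. The groups did not overlap in 26 of the 31 genes, and in 64.6% of all genes. Differences of at least 1 (log2) that passed were found in 5 of the 31 genes and in 8.5% of all genes. The median difference was -0.03 over the 31 genes, against 0.02 over all genes, so the family as a whole had no direction. CIPK10 and CIPK14 were the lowest relative to wild type, and CIPK25, CIPK6 and CBL4 the highest.

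Among the kinase genes that were lower, CIPK10 read 8.47, 8.83 and 8.87 in the arrays labelled mutant at 11 d, against 11.13, 11.14 and 11.14 in wild type at 11 d. The difference was -2.41 (SE 0.17, adjusted p = 1.26e-06), or 5.33-fold lower, and -2.49 without the array in doubt. All 4 probe sets of this gene passed, with differences of -2.86 to -2.27. At 7 d CIPK10 read 9.50, 9.69 and 9.10 in the mutant and 9.71, 9.35 and 9.14 in wild type, groups that overlap.

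CIPK14, a kinase gene linked in rice cells to responses to microbial elicitors, read 10.05, 9.83 and 11.02 in the arrays labelled mutant at 11 d, against 12.39, 12.74 and 12.54 in wild type. The groups did not overlap, and the difference was -2.26 (SE 0.31, adjusted p = 0.00016), or 4.78-fold lower. The array in doubt gave the highest of the mutant values, and without it the difference was -2.62 (SE 0.27). CIPK14 is nearly identical to CIPK15, which had no probe set of its own, so the signal may hold transcripts of both genes.

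CIPK24, the rice counterpart of SOS2, read 8.21, 8.08 and 8.14 in the arrays labelled mutant at 11 d, against 8.84, 9.02 and 9.05 in wild type. This is a difference of -0.83 (SE 0.09, adjusted p = 3.38e-05), the same without the array in doubt. CBL4, the counterpart of SOS3 that docks onto this kinase, went the other way. It read 7.10, 6.72 and 6.88 in the arrays labelled mutant, against 5.61, 5.31 and 5.71 in wild type, a difference of 1.36 (SE 0.14, adjusted p = 1.5e-05, and 1.37 with the doubted array omitted) or a 2.57-fold higher signal. All arrays of both genes were separated by genotype at 11 d, in opposite directions, and neither gene passed at 7 d (0.24 for CIPK24 and 0.03 for CBL4).

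CIPK17 read 7.35, 7.27 and 7.15 in the arrays labelled mutant at 11 d, against 7.92, 8.09 and 8.33 in wild type, a difference of -0.86 (SE 0.17, adjusted p = 0.00203). CIPK21 read 8.24, 8.10 and 8.04 in the arrays labelled mutant and 8.88, 8.94 and 9.03 in wild type, a difference of -0.82 (SE 0.18, adjusted p = 0.00479). CIPK19 differed by -0.60 (SE 0.08, adjusted p = 0.000106), with 9.19, 9.29 and 9.30 in the arrays labelled mutant against 9.75, 9.88 and 9.94 in wild type. In each of these 3 kinase genes every array labelled mutant lay below every wild-type array. Without the array in doubt the differences were -0.81 for CIPK17, -0.78 for CIPK21 and -0.62 for CIPK19.

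Among the kinase genes that were higher, CIPK25 read 7.79, 7.50 and 7.84 in the arrays labelled mutant at 11 d, against 6.58, 5.95 and 5.97 in wild type, a difference of 1.54 (SE 0.21, adjusted p = 0.000132). CIPK6 read 9.20, 9.32 and 8.91 in the arrays labelled mutant, against 7.75, 7.51 and 7.72 in wild type, a difference of 1.48 (SE 0.12, adjusted p = 2.65e-06). These are 2.91-fold and 2.8-fold higher signals, with no overlap, and without the array in doubt the differences were 1.48 for CIPK25 and 1.60 for CIPK6. CIPK2 was higher by 0.83 (SE 0.09, adjusted p = 2.24e-05, and 0.81 with the doubted array omitted), with 10.73, 10.54 and 10.69 in the arrays labelled mutant against 9.88, 9.77 and 9.82 in wild type. Its neighbour in the gene table, CIPK29, differed by 0.13 (adjusted p = 0.402), so these adjacent kinase genes did not both pass. CIPK30 and CIPK12, which are adjacent as well, did not pass at either age.

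Smaller increases that passed were CIPK32 (0.51, SE 0.08), CIPK26 (0.49, SE 0.11) and CIPK11 (0.28, SE 0.10, adjusted p = 0.0497). CIPK32 read 10.08, 9.91 and 9.86 in the arrays labelled mutant at 11 d, against 9.44, 9.40 and 9.48 in wild type. CIPK26 read 6.81, 6.72 and 6.76 in the arrays labelled mutant, against 6.18, 6.33 and 6.30 in wild type. CIPK11 is close to the threshold. It kept its call in 3 of the 12 fits with an array omitted, and lost it without the array in doubt (adjusted p = 0.118), whereas CIPK32 (0.55 without that array) and CIPK26 (0.49) kept theirs in all 12.

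**Figure D2:**
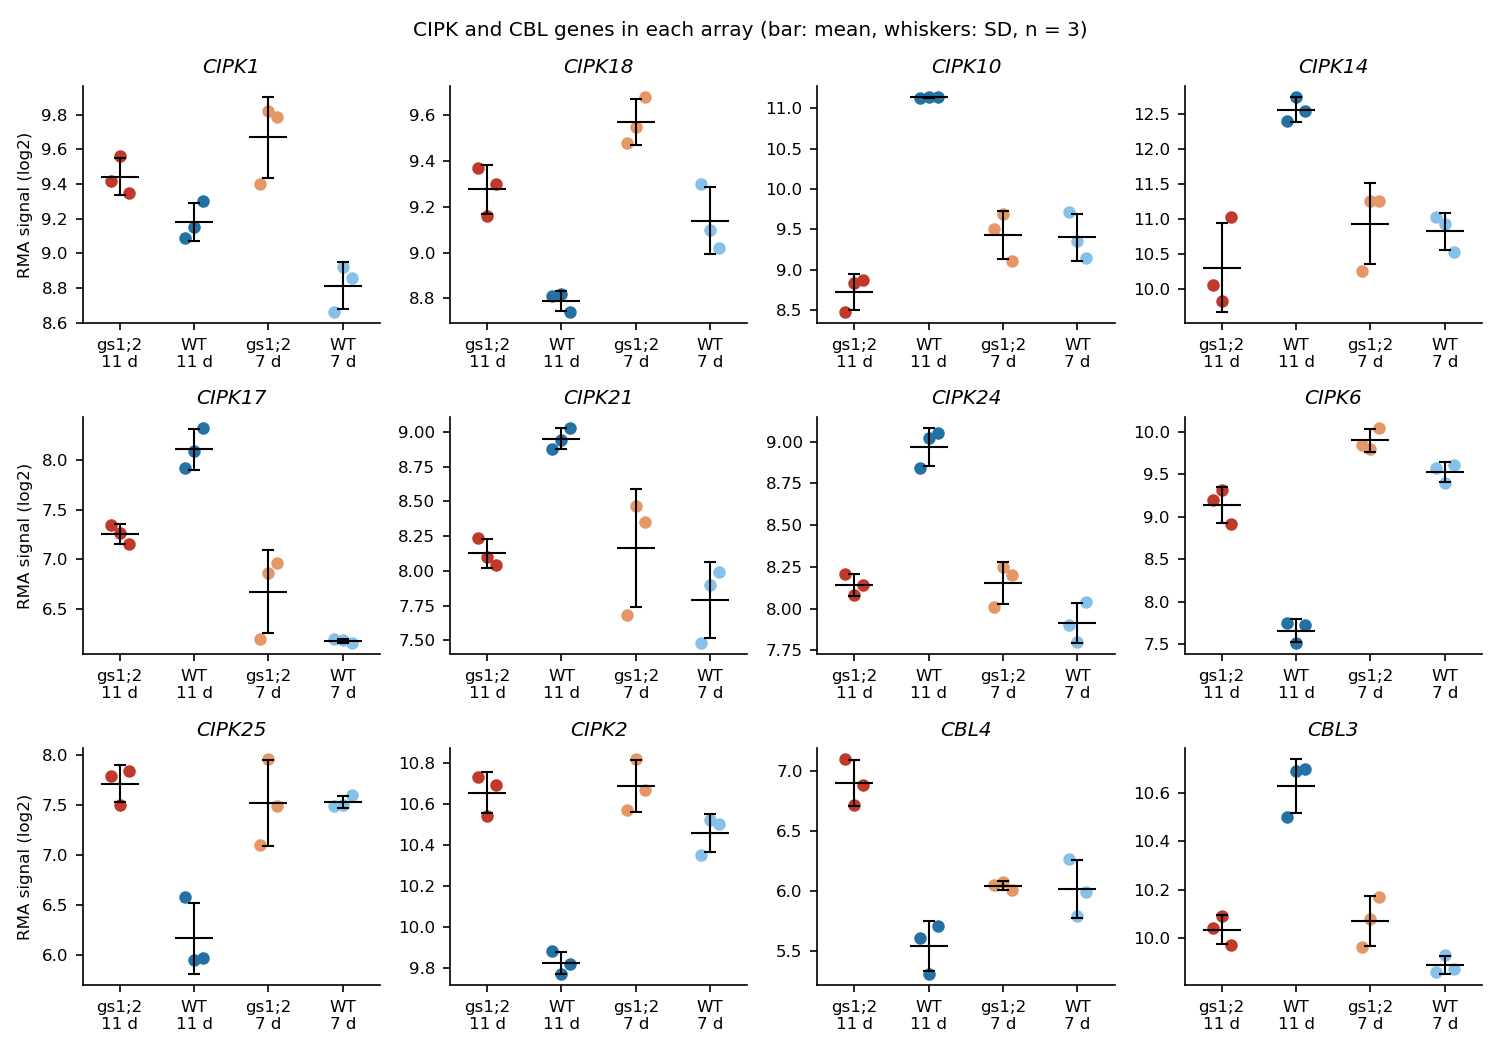
RMA signal (log2) of 12 CIPK and CBL genes in each of the 12 arrays, by group, with the mean and SD of 3 arrays. For CIPK10, CIPK14, CIPK17, CIPK21, CIPK24 and CBL3 the wild-type arrays at 11 d lie above all others, and for CIPK6, CIPK25, CIPK2, CIPK18 and CBL4 below all others.

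Of the 7 sensor genes, 3 were higher at 11 d in the arrays labelled mutant, 3 were lower and CBL5 did not pass. Besides CBL4, CBL2 was higher by 0.29 (SE 0.07, adjusted p = 0.00687) and CBL6 by 0.30 (SE 0.10, adjusted p = 0.0414). CBL3 was lower by -0.60 (SE 0.08, adjusted p = 0.000144), with 10.04, 10.09 and 9.97 in the arrays labelled mutant against 10.50, 10.69 and 10.70 in wild type. CBL9 (-0.32, SE 0.08, adjusted p = 0.00791) and CBL10 (-0.36, SE 0.10, adjusted p = 0.0153) were lower as well. CBL6 kept its call in 4 of the 12 fits with an array omitted, and lost it without the array in doubt (adjusted p = 0.057). CBL10 kept its call in 9 and lost it without mutant 11 d replicate 2 or wild-type 11 d replicate 2 or 3 (adjusted p up to 0.0613). Without the array in doubt the differences were 0.29 for CBL2, -0.56 for CBL3, -0.33 for CBL9 and -0.37 for CBL10, and these passed.

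CIPK23, the kinase that acts on AKT1, read 9.90, 9.97 and 9.98 in the arrays labelled mutant at 11 d, against 10.00, 10.13 and 10.13 in wild type, a difference of -0.14 (adjusted p = 0.249). AKT1 itself read 8.09, 8.34 and 7.58 in the arrays labelled mutant, against 7.08, 7.16 and 6.46 in wild type, and had a 2.15-fold higher signal (adjusted p = 0.00302), or 2.48-fold without the array in doubt. The groups do not overlap at 11 d for AKT1, a channel for potassium uptake, or for CIPK23. AKT1 passed at this age and the kinase gene did not. A further probe set of CIPK23 differed by -0.61 at 11 d (adjusted p = 0.0614) and by 0.80 at 7 d (adjusted p = 0.109). In that probe set the change of the genotype difference from 7 d to 11 d was -1.42 (SE 0.31, adjusted p = 0.00635), against -0.30 (adjusted p = 0.0831) in the probe set with the higher mean, so the probe sets disagree on that call.

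CIPK7 has no settled direction. The probe set of higher mean gave a genotype difference of -0.43 at 11 d (SE 0.10, adjusted p = 0.00545, and -0.42 with the doubted array omitted), while the other gave 1.66 (SE 0.18, adjusted p = 3e-05). The gene table gives this locus the further names THA4 and TATA, used in plants for a thylakoid protein transport component, and the probe annotation does not tell which transcript each probe set reads. The 8 genes with several probe sets otherwise had the same sign for all of them at 11 d, although the dimmest of 3 probe sets for CIPK2 read 0.04 and did not pass.

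**Figure D3:**
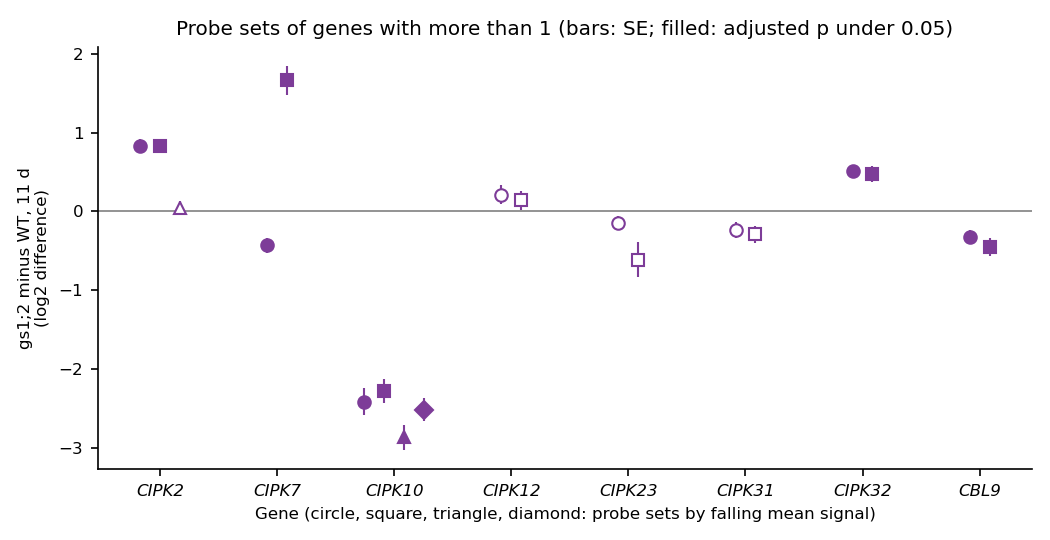
Genotype difference at 11 d (gs1;2 minus wild type, log2, with the standard error of the fit) for each probe set of the 8 genes with more than 1, ordered by falling mean signal within a gene. The 4 probe sets of CIPK10 lie between -2.86 and -2.27, and the 2 of CIPK7 lie on either side of 0.

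With age, the question was which of the genes move between 7 and 11 d in each genotype. In the mutant 4 genes rose, 3 fell and 24 did not pass, and in wild type 12 rose, 7 fell and 12 did not pass. Those that passed were 22.6% of the 31 genes in the mutant and 61.3% in wild type, against 15.5% and 53.8% of all genes. Over all genes 6.51% rose and 8.98% fell in the mutant, and 25.5% rose and 28.4% fell in wild type. The wild-type arrays at 11 d enter both the age difference of wild type and the genotype difference at 11 d, so these are not independent and their values are only set side by side.

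In the mutant, CBL4 was at 7.10, 6.72 and 6.88 at 11 d, against 6.05, 6.08 and 6.01 at 7 d, and rose by 0.86 (SE 0.14, adjusted p = 0.00183), the same without the array in doubt. In wild type it fell by 0.48 (SE 0.14, adjusted p = 0.0161), with 5.61, 5.31 and 5.71 at 11 d against 6.27, 5.79 and 5.99 at 7 d. CIPK10 also moved in opposite directions, falling by 0.71 in the mutant (SE 0.17, adjusted p = 0.0196) and rising by 1.74 in wild type (SE 0.17, adjusted p = 8.88e-06). The call of CIPK10 in the mutant was lost in 3 of 12 fits with an array omitted (adjusted p up to 0.086, without mutant 11 d replicate 1), and that of CBL4 in wild type in 2 (adjusted p up to 0.0763, without wild-type 11 d replicate 2). With the doubted array omitted, CIPK10 fell by 0.78 in the mutant and passed (adjusted p = 0.0301). It did not pass there when only the groups compared were fitted (adjusted p = 0.0535). Its other probe sets gave -0.54 (adjusted p = 0.0494), -0.18 (adjusted p = 0.634) and -0.91 (adjusted p = 0.00212) in the mutant. Each of them rose and passed in wild type. In the probe set used, CBL4 and CIPK10 passed in both genotypes with opposite signs, and 3 genes passed in both with the same sign.

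Those 3 were CIPK6, CIPK19 and CBL9. CIPK6 fell by 0.76 in the mutant (SE 0.12, adjusted p = 0.00139) and by 1.87 in wild type (SE 0.12, adjusted p = 6.91e-07). CIPK19 rose by 0.46 in the mutant and 0.87 in wild type, and CBL9 by 0.40 in the mutant and 0.71 in wild type. The change was smaller in the mutant in each, and the tested difference of the age changes was 1.11 for CIPK6 (adjusted p = 0.000506), -0.41 for CIPK19 (adjusted p = 0.0178) and -0.31 for CBL9 (adjusted p = 0.0653), which did not pass. Omitting the doubted array gave age differences in the mutant of -0.64 for CIPK6, 0.44 for CIPK19 and 0.38 for CBL9, and all 3 passed. The second probe set of CBL9 did not pass in the mutant (0.36, adjusted p = 0.0809) and passed in wild type (0.80, adjusted p = 0.000152).

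CIPK17 had the largest increase with age in wild type, 1.94 (SE 0.17, adjusted p = 4.6e-06), with 7.92, 8.09 and 8.33 at 11 d against 6.19, 6.18 and 6.15 at 7 d. In the mutant the difference of CIPK17 was 0.59 and just missed the threshold (adjusted p = 0.0506), and it was 0.64 with the doubted array left out (adjusted p = 0.0793). CIPK14 rose by 1.74 in wild type (SE 0.31) and differed by -0.63 in the mutant (adjusted p = 0.294). The value in the mutant was -0.99 when the doubted array was left out (SE 0.27, adjusted p = 0.0512). CIPK21 rose by 1.16 and CIPK24 by 1.06 in wild type, with differences of -0.04 and -0.01 in the mutant. CIPK25 fell by 1.36 and CIPK2 by 0.64 in wild type, with differences of 0.19 and -0.03 in the mutant. Of the 31 genes, 14 passed in wild type and not in the mutant, while CIPK32 (0.37) and CIPK7 (-0.42) passed in the mutant and not in wild type. Over all genes, too, more passed in wild type (53.8%) than in the mutant (15.5%). The share of all genes that passed in 1 genotype alone was not computed, so this split is not shown to be particular to the family. CIPK7 lost that call without the array in doubt (-0.41, adjusted p = 0.0594) and in 3 of 12 fits with an array omitted. CIPK32 kept it without that array (0.41, adjusted p = 0.016) but lost it without mutant 11 d replicate 1 (adjusted p = 0.0553). Its second probe set did not pass (0.16, adjusted p = 0.428). That probe set had a mean of 3.06 over the 12 arrays, and whether it is above background is not known.

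**Figure D4:**
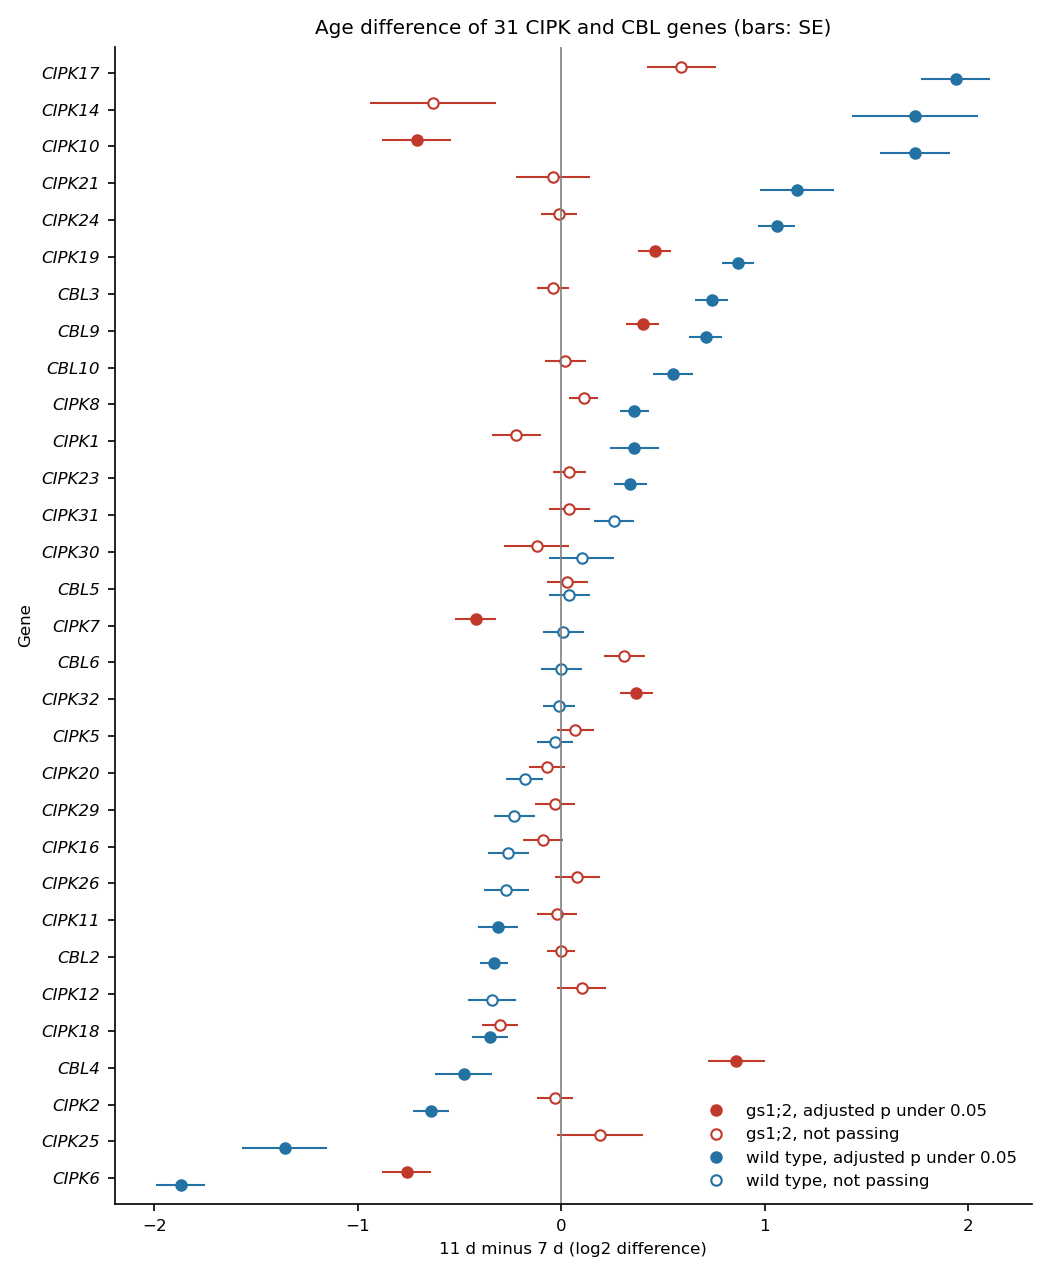
Age difference (11 d minus 7 d, log2) of 31 CIPK and CBL genes in gs1;2 (red) and in wild type (blue), with the standard error of the fit; filled points have an adjusted p under 0.05. CIPK10 and CBL4 are filled on opposite sides of 0 in the 2 genotypes.

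The change of the genotype difference from 7 d to 11 d is the test of whether that difference is the same at both ages. It passed in 16 of the 31 genes (51.6%, against 38.2% of all genes), upwards in 6 and downwards in 10, against 18.6% and 19.6% of all genes. The largest were -2.45 for CIPK10 (SE 0.24, adjusted p = 3.68e-05), -2.36 for CIPK14 (SE 0.44), -1.35 for CIPK17 (SE 0.24) and -1.20 for CIPK21 (SE 0.26), and upwards 1.55 for CIPK25 (SE 0.29), 1.33 for CBL4 (SE 0.19), 1.11 for CIPK6 (SE 0.16) and 0.60 for CIPK2 (SE 0.12). The values without the doubted array were -2.52 for CIPK10, -2.72 for CIPK14, -1.30 for CIPK17, -1.16 for CIPK21, 1.49 for CIPK25, 1.34 for CBL4, 1.23 for CIPK6 and 0.58 for CIPK2, and all 8 passed.

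Across the 4 groups, wild type at 11 d was set apart most often. In 20 of the 31 genes (64.5%, against 42.2% of all genes) all 3 arrays of that group lay beyond all 9 others. They lay above in 11 genes, namely CIPK8, CIPK10, CIPK14, CIPK17, CIPK19, CIPK21, CIPK24, CIPK31, CBL3, CBL9 and CBL10. They lay below in 9, namely CIPK2, CIPK6, CIPK11, CIPK16, CIPK18, CIPK25, CIPK26, CBL2 and CBL4. The arrays labelled mutant at 11 d lay beyond all others in 5 genes (16.1%, against 12.2% of all genes), above in CIPK32, CBL4 and CBL6 and below in CIPK7 and CIPK10.

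With the probe set of highest mean, no comparison passed for 8 genes, CIPK5, CIPK12, CIPK16, CIPK20, CIPK29, CIPK30, CIPK31 and CBL5. Of these, CIPK5, CIPK20, CIPK30 and CBL5 had a mean under 4 (log2) over the 12 arrays, as did 8.72% of all genes, and whether they are above background is not known without detection calls. CIPK12, whose added expression raises drought tolerance in rice, ranged from 6.38 to 6.98 over the 12 arrays. CIPK31, needed for normal seedling growth of rice under stress, ranged from 9.71 to 10.24. For age in wild type, CIPK12 passed in 4 and CIPK31 in 2 of the 12 fits with an array omitted, and the second probe set of CIPK31 passed for age in wild type (0.45, adjusted p = 0.00606) and for the change of the genotype difference (-0.47, adjusted p = 0.0448). Their lack of a call therefore does not show that they stayed level. CIPK8 passed only for age in wild type (0.36, SE 0.07, adjusted p = 0.00153).

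The genes that work beside this family were taken from lists set by gene name. None of the 20 calcium-dependent protein kinase genes, which join a calcium sensor and a kinase in a single protein, passed at 7 d, when 1.25% of all genes did. At 11 d 2 of them were higher in the arrays labelled mutant and 6 lower, or 40% in all against 46.7% of all genes. Among those lower were CPK24 (-0.94), CPK7 (-0.85), CDPK5 (-0.51) and CPK23 (-0.36), with values of -0.97, -0.97, -0.50 and -0.38 once the doubted array was left out. Of 26 calmodulin and calmodulin-like genes, which encode calcium sensors without a kinase, 0 passed at 7 d, and 12 were higher and 5 lower at 11 d, or 65.4% in all. Over all genes 23.9% were higher and 22.8% lower at 11 d. Without the array in doubt 3 genes of the kinase list were higher and 6 lower, and 9 of the calmodulin list were higher and 5 lower. In that fit 43.2% of all genes passed at 11 d. CML10 (2.05, SE 0.16) and CML7 (0.41) were higher, and CML4 (-1.38, SE 0.15) and CML29 (-1.23, SE 0.12) lower, and all 4 passed without that array (2.00, 0.42, -1.39 and -1.29). The median difference at 11 d was -0.04 over the kinase list, 0.20 over the calmodulin list and 0.02 over all genes.

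Of 11 genes of calcium channels and transporters, the vacuolar exchanger genes CAX1a (0.63, SE 0.16) and CAX3 (0.20, SE 0.06) were higher at 11 d and 0 were lower. These are 18.2% of the list, below the 46.7% of all genes, and CAX3 lost its call without the array in doubt (adjusted p = 0.0633). Of 6 transporter and oxidase genes of kinds that CBL-CIPK pairs act on in plants, AKT1 and the ammonium transporter gene AMT1-2 (3.09, SE 0.17; 3.19 without the array in doubt) were higher at 11 d. The potassium transporter gene HAK1 differed by 1.44 at 7 d (SE 0.37, adjusted p = 0.0908) and did not pass at either age, nor did AMT1, HAK5 and RBOHB. At 7 d HAK1 did pass once the doubted array was left out of the fit (1.44, SE 0.27, adjusted p = 0.032). The SNF1-related kinase gene SNRK1B was lower at 11 d, at 0.499 of the wild-type signal (adjusted p = 5.16e-05) and 0.489 with the doubted array omitted, and SnRK1A, which acts in sugar starvation responses downstream of CIPK15 in rice, differed by 0.03 (adjusted p = 0.795).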

How the data were processed

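Transcript levels of 12 arrays (Affymetrix Rice Genome Array, total RNA) were analysed. The authors deposited log2 values. RMA (robust multi-array averaging) and R 3.1.0 are named per the submitters' processing notes, without the options used. Array medians lay between 4.942 and 5.003, and no values were missing. No further normalization was applied, and 187 control probe sets were left out, leaving 57194. Precision is limited by the 3 arrays in each group, and signal over background is unknown.

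Names came from the annotation of the platform and a RefSeq gene table (assembly ASM3414082v1), used for names and neighbours. Probe sets with 1 gene numbered 22436. The members and lists were chosen with earlier results of these data known.

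A single limma 3.58.1 model (R 4.3.3) covered all 12 arrays, with 4 group means, default empirical Bayes moderation and 8 residual degrees of freedom. Two-sided p-values were adjusted for 57194 probe sets per comparison by Benjamini-Hochberg, with a threshold of 0.05. The fit was also run on simulated data with known changes in the mutant at 7 d alone. No result of that run is used here, and it does not bear on the calls at 11 d. Every gene of both families is named or counted. Differences are given for genes that pass at 7 d, the 6 largest each way at 11 d and the 4 largest each way of the other comparisons. For related lists they are given for up to 4 genes with the smallest p. Array values, SE and adjusted p are not printed for all of these genes in every comparison. CIPK23, CBL3 and further sensors were added after their values were seen. Alternatives were trend and robust moderation, fitting only the groups compared, a filter on dim probe sets, a common median or quantile normalization of the arrays, array weights, another probe set, a minimum change, a pairing by title number and leaving out each array.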

Additional observations from a re-analysis of the deposited data

Results flagged for a closer look

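The genotype difference changed between 7 d and 11 d, by the interaction term of the fit, in 16 of the 31 genes. It moved downwards in CIPK10 (-2.45), CIPK14 (-2.36), CIPK17 (-1.35), CIPK21 (-1.20), CIPK24 (-1.07), CBL3 (-0.78), CIPK1 (-0.59), CBL10 (-0.53), CIPK7 (-0.42) and CIPK19 (-0.41). It moved upwards in CIPK25 (1.55), CBL4 (1.33), CIPK6 (1.11), CIPK2 (0.60), CIPK32 (0.38) and CBL2 (0.33). Every one of these values rests in part on the wild-type arrays at 11 d, and a different growth condition of that group cannot be told apart from the change. The calls of CIPK1, CIPK7, CIPK19, CIPK32 and CBL2 were lost when at least 1 single array was left out, and those of the other 11 genes passed in all 12 such fits. CIPK7 has the opposite sign in its other probe set.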

How the results depend on the processing

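Counts of genes that passed were 2 at 7 d, 20 at 11 d, 16 for the change between the ages, 7 for age in the mutant and 19 for age in wild type. At 7 d the count was 1 when only the groups compared were fitted, when arrays were set to a common median, with array quality weights and with a minimum change of 0.5 (log2), and CIPK18 was the gene lost each time. With that minimum the other counts were 12 at 11 d, 12 for the change between the ages, 3 for age in the mutant and 12 for age in wild type. Leaving out each array gave 1 to 4 genes at 7 d, with 4 without mutant 7 d replicate 1, 17 to 21 at 11 d, 11 to 16 for the change between the ages, 4 (without mutant 11 d replicate 1) to 9 for age in the mutant and 16 to 22 for age in wild type. Calls over all probe sets moved too. At 7 d they went from 556 to 1556 without mutant 7 d replicate 1. For age in the mutant they went from 4846 to 3307 without mutant 11 d replicate 1. With title numbers 8 and 9 as a replicate block, on the 4 arrays at 7 d that share them, 0 genes passed in limma (adjusted p = 0.167 for CIPK1 and 0.301 for CIPK18), and without the block on the same 4 arrays, chosen after seeing the data, 0 did as well. The titles do not call these replicate numbers, and deviations of same-numbered arrays correlated at 0.0563. For CIPK7 the other probe set turned the sign, with 1.66 at 11 d, 1.68 for the change between the ages and 2.15 for age in the mutant. Of 1221 values of genes that passed, recomputed under the alternatives, 1101 kept direction and call, 117 kept direction and lost the call, and these 3 turned. Signal over background is unknown, which limits the dimmest genes.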
